A study of Mustela putorius furo with 8 samples.

Results

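The genes described here encode the proteins of the cytoplasmic ribosome. Members were all features whose symbol starts with RPL or RPS and a digit, with the RPS6K kinases left out, and 78 of the 27912 features of the deposited matrices met this rule. Of these, 47 carried an RPL symbol (large subunit) and 31 an RPS symbol (small subunit). RPS19BP1, a protein that binds RPS19, and the ribosome biogenesis gene RPL7L1 met the rule by name only. RPL10L had no UMI in any library, where a count of 3 would have been 0.0262 to 0.0864 CPM (UMIs per 1000000 UMIs of a library), and the other 77 were counted in all 8 libraries.

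The cells were pancreatic ductal epithelial (PDE) cells of the ferret. Duct structures came from newborn animals 1 to 3 days old, wild type (WT) or with both CFTR alleles knocked out (CF, genotype CFTR KO/KO), and the cells were expanded on 804G-coated plastic in PneumaCult medium for 10 passages. They were then seeded on transwells and sequenced on day 2, 5, 7 or 9 at an air-liquid interface (ALI), after dead cells had been removed. Both genotypes shared the same culture steps, so the WT libraries of each day are the control. There was 1 library per genotype and day, and by the study's text it pooled cells of 3 donors. A value therefore has no replicate error, no pair of libraries could be tested against each other, and each interval below is a 95% interval for counting error only.

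A ribosome joins a large subunit, which forms the peptide bonds, and a small subunit, which reads the mRNA. Each protein is needed in about equal number, and most of their mRNAs begin with a terminal oligopyrimidine (TOP) tract through which mTOR signalling controls their translation. A few members are paralogs that replace the usual protein or have roles outside the ribosome.

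The 8 libraries held 1607 to 6224 retained cells and 34735952 to 114585136 UMIs, with medians of 14949 to 23427 UMIs per cell. Any pair of libraries shared 1 to 14 cell barcodes, at most 0.4% of the smaller one. CFTR was counted at 6.57, 16.9, 15.9 and 29.5 CPM in WT and at 2.5, 8.69, 11.1 and 11.4 CPM in the libraries labelled CF, so it did not check the label by absence. The pancreatic factor PDX1 had 0 or 1 UMI in each WT library and 175 to 345 in each CF library, while SOX2 had 5793 to 13124 UMIs in WT and 1 to 3 in CF. The duct keratin KRT19 was at 3772 to 5113 CPM throughout, and the epithelial gene EPCAM at 88.5 to 189 CPM. Not all ductal markers of the study were as steady as KRT19. Between day 2 and day 9, KRT5 went from 1077 to 364 CPM in WT and from 887 to 370 CPM in CF. KRT15 went from 131 to 16.8 CPM in WT and from 17.4 to 1.60 CPM in CF. Summed markers of fibroblasts (7 genes, 1.54 to 30.2 CPM), immune cells (5 genes, 4.32 to 21.8 CPM), endothelium (4 genes, 0.080 to 0.259 CPM) and endocrine cells (5 genes, at most 0.112 CPM) were low next to the member genes, and their part in the results was not tested.

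Ribosomal protein genes took a large and steadily smaller share of the RNA as the cultures polarized. In WT they held 19.7%, 15.2%, 14.6% and 11.6% of all UMIs on day 2, 5, 7 and 9. In CF they held 19.8%, 16.5%, 13.7% and 12.5%. The 95% Clopper-Pearson intervals were no wider than 0.0229 percentage points. Between day 2 and day 9 the share fell by 0.77 on the log2 scale in WT, a ratio of 0.588 (95% interval 0.587 to 0.588). In CF it fell by 0.66, a ratio of 0.632 (0.631 to 0.633). Day 9 was below day 7 and day 7 below day 5 in either genotype.

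Single cells showed the same fall, with WT day 5 and 7 close together. The median cell of WT gave 20.3%, 12.9%, 13.0% and 10.5% of its UMIs to the members, and the median CF cell 20.9%, 16.7%, 13.1% and 12.2%. Cells within a library spread widely, from 5.35% at the 5th to 18.2% at the 95th percentile at WT day 9 and from 4.75% to 18.2% at CF day 9. In counts per cell, the median WT cell held 3263 member UMIs on day 2 and 1598 on day 9, with 13168 and 13271 UMIs of other genes. The median CF cell held 3566 and 2494 member UMIs, with 14458 and 17356 of other genes. In WT the member UMIs were thus lower while the other UMIs of the median cell moved little.

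**Figure D1:**
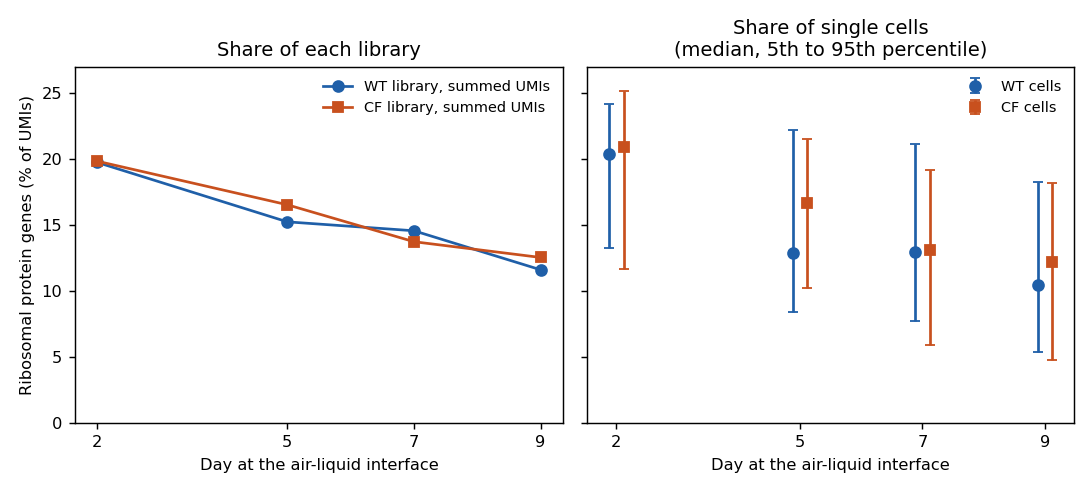
Left, percent of all UMIs on the ribosomal protein genes (y axis) by day at the ALI (x axis), 1 point per library, WT circles and CF squares. Right, the same percent in single cells, as the median with bars from the 5th to the 95th percentile; both genotypes start near 20% on day 2, and the libraries of day 9 lie at 11.6% (WT) and 12.5% (CF).

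The change between day 2 and day 9 ran across most members. Levels were compared as log2((CPM + 1)/(CPM + 1)), and a gene was counted as changed at 1.5-fold or more if it had at least 100 UMIs in the 2 libraries together, which 77 members had in every comparison. In WT, 54 of 77 members were lower by 1.5-fold or more at day 9 against 13.1% of 12609 genes tested, and 2 were higher against 20.8%. In CF, 40 of 77 were lower against 8.03% of 12221 genes, and 2 were higher against 19.3%. With TMM library sizes, which rescale each library by the bulk of its genes, 61 members were lower in WT (18.9% of all genes) and 62 in CF (15.3%), so the counts of the genotypes then differed by 1, and 1 was higher in each. The median member was at -0.86 in WT and -0.61 in CF, where the median of all genes tested was 0.12 and 0.16. By direction alone, 66 members were lower at day 9 in both genotypes, against 25.7% of the 11954 genes tested in both, and 1 was higher in both, against 47.9%. By 1.5-fold or more, 38 were lower in both, against 5.39%. The log2 difference was lower in WT than in CF for 64 of 77 members, against 58.0% of all genes, and for 59 of 77 with TMM library sizes, against 52.2%.

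The members with most UMIs followed the whole. RPS19, a small subunit protein whose loss causes Diamond-Blackfan anaemia, was at 6107, 4766, 4466 and 3579 CPM in WT and at 6170, 4558, 3803 and 3358 CPM in CF. RPS2 was at 6115, 4612, 4587 and 2953 CPM in WT and at 4524, 4155, 3640 and 3142 CPM in CF. Both were lowest on day 9 in either genotype, and RPS2 began lower in CF. RPS18 (4709 to 2356 CPM in WT between day 2 and day 9, 4882 to 2851 CPM in CF) and RPL13 (5002 to 2122 CPM and 4676 to 2259 CPM) changed alike.

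The largest falls were in large subunit genes. In WT these were RPL7A (4713, 3313, 3052 and 1911 CPM), RPL4 (721, 481, 473 and 294 CPM) and RPL8 (3560, 2465, 2236 and 1453 CPM), with log2 differences between day 2 and day 9 of -1.30, -1.29 and -1.29. In CF the largest were RPL10 (5393, 3696, 2749 and 2333 CPM), RPL8 (3065, 2135, 1650 and 1423 CPM) and RPL29 (3270, 2287, 1689 and 1520 CPM), at -1.21, -1.11 and -1.10. RPL10 and RPL8 sit close to the centre where peptide bonds form, and RPL4 lines the tunnel through which the new chain leaves.

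**Figure D2:**
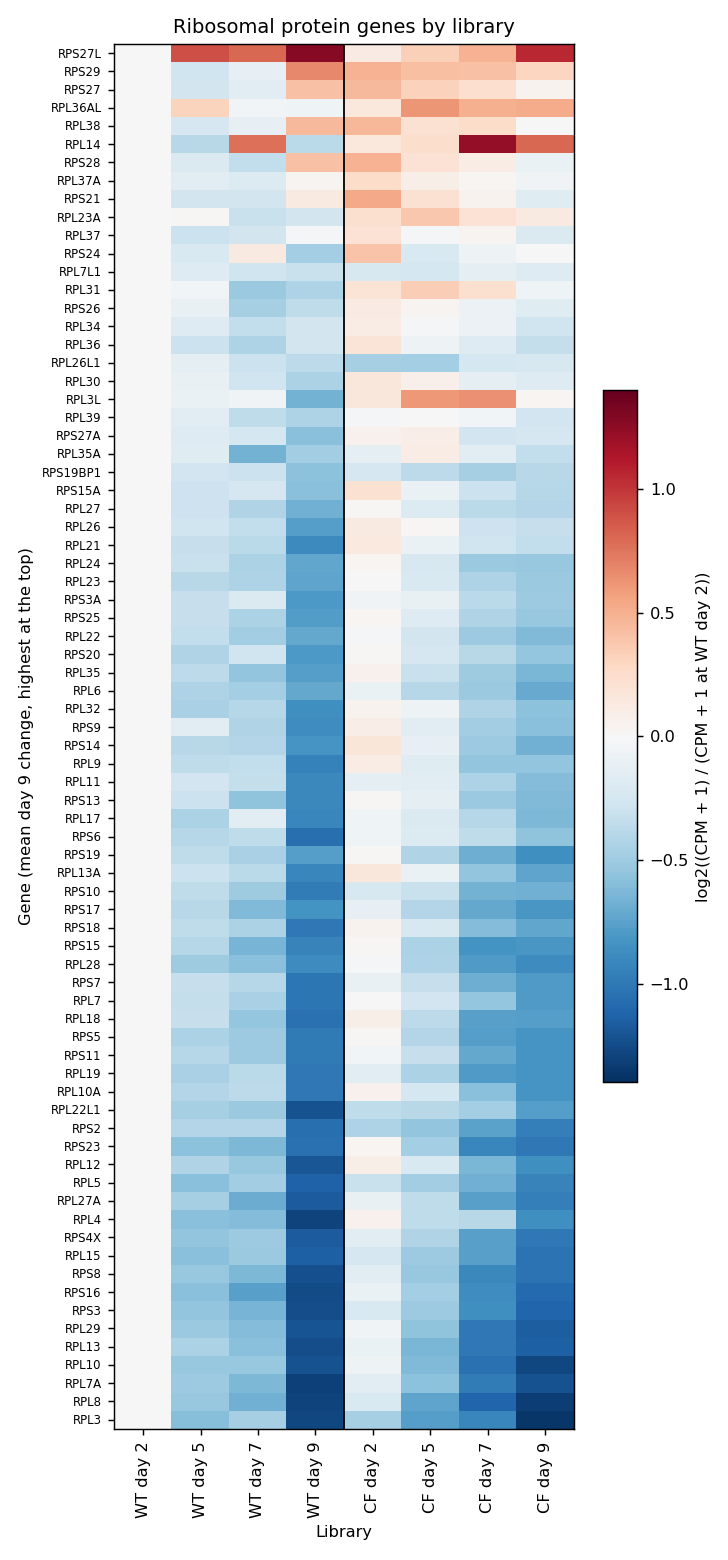
Log2 ratio of 76 of the counted members (rows) in each library (columns, WT left and CF right of the line) to its level at WT day 2, red for higher and blue for lower. Most rows turn blue towards day 9 in both genotypes; RPS27L stays red after WT day 2, and the row of RPL14 is reddest on day 7 in each genotype.

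The study asked how loss of CFTR changes these cells, so the genotypes were set side by side on each day. The member share was higher in CF by 0.0949 percentage points at day 2, 1.3 at day 5 and 0.934 at day 9, and at day 7 it was lower, at -0.829. As log2 ratios these were 0.01, 0.12, -0.08 and 0.11. The counting intervals do not include 0 on any day, but the direction was not the same on all days. It turned at day 2 under 6 of 11 alternatives, at day 9 with TMM scaling (-0.02), and at day 5 and 9 when CF was set against SOX2-low WT clusters alone (-0.25 and -0.15).

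In CPM, few single members passed 1.5-fold between the genotypes. On day 2 none of 77 was higher or lower in CF by that much, against 10.7% and 11.7% of all genes tested. On day 5, RPL14, RPL3L and RPS29 were higher and none was lower (6.62% and 11.0% of all genes). On day 7, RPL31 and RPL3L were higher and none was lower (14.4% and 7.62%), and on day 9 these were RPL14 and RPL3L, again with none lower (10.6% and 8.77%). At day 7 the counts turned with the scaling and with the WT cells used: none was higher and 6 were lower with TMM library sizes (8.55% and 11.4% of all genes), 1 and 3 with DESeq2 size factors (9.54% and 10.3%), and 1 and 15 against SOX2-low WT cells alone (19.0% and 6.59%). Against these WT cells 1 was higher and none was lower on day 2 (6.78% and 5.83%). On day 5, 1 was higher and 5 were lower (10.8% and 8.43%), and on day 9 these were 2 and 5 (8.33% and 4.92%). The SD of the log2 difference over the members was 0.207, 0.213, 0.287 and 0.252 on day 2, 5, 7 and 9, and over all genes tested it was 0.714, 0.658, 0.708 and 0.711. On all 4 days 14 of 77 members were higher in CF by any amount, against 23.2% of 11864 genes, and 4 were lower on all 4, against 18.8%.

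**Figure D3:**
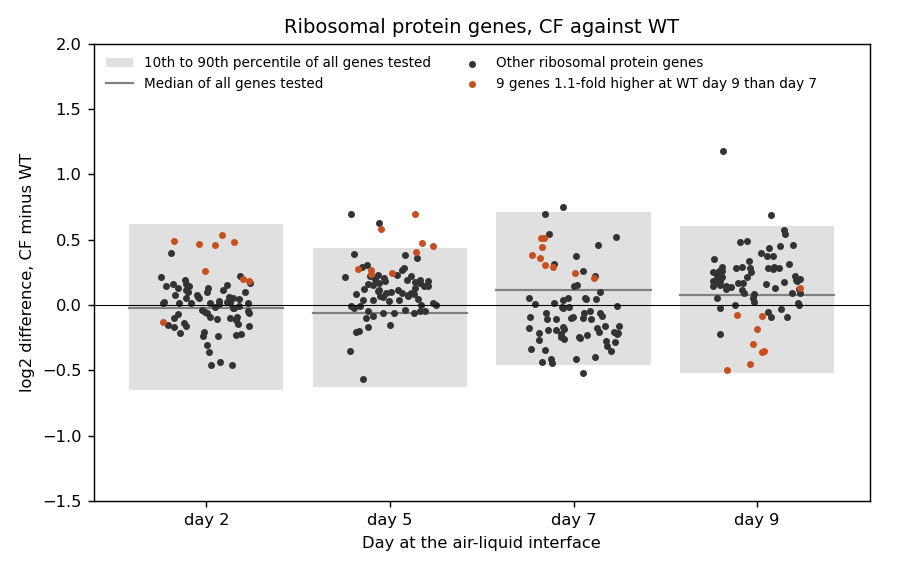
Log2 difference between CF and WT (y axis) of each member on each day (x axis), orange for the 9 of 14 genes higher at WT day 9 than at WT day 7 that were higher by at least 1.1-fold, had 100 CPM or more and were not RPS27L. Grey bands run from the 10th to the 90th percentile of all genes tested and grey lines mark their median. Most members lie inside the band, and the orange points change from mostly above 0 on day 2, 5 and 7 to mostly below 0 on day 9. The choice of the orange genes on the WT step from day 7 to day 9 favours this change.

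RPL14 (138217641 to 138221394 on its sequence in ASM1176430v1.1, for which the annotation table names no chromosome), a large subunit protein, had the highest mean difference between the genotypes. It was at 164, 126, 282 and 126 CPM in WT on day 2, 5, 7 and 9 and at 182, 195, 388 and 288 CPM in CF. It was thus highest on day 7 in both genotypes and above WT in CF on each day, with ratios of 1.11 (1.09 to 1.13), 1.55 (1.51 to 1.58), 1.38 (1.35 to 1.41) and 2.27 (2.22 to 2.33). In SOX2-low WT cells alone RPL14 was at 163, 158, 352 and 143 CPM, closer to CF on day 5, 7 and 9 but below it on each day. Day 9 against day 2 was -0.38 in WT and 0.66 in CF on the log2 scale. The day 7 level was seen in each cluster that could be followed. Among clusters with at least 30 cells on both day 5 and day 7, RPL14 was higher on day 7 in 21 of 21 in WT and in 7 of 7 in CF, with medians of 1.19 and 1.18 on the log2 scale. Between day 7 and day 9 it was lower in 16 of 16 such WT clusters (median -0.76) and in 11 of 12 CF clusters (median -0.31). Clusters of a genotype are parts of the same libraries, so these counts are a description and the clusters are not repeats. The share of all genes that moved in this way was not counted. The cause of a level that moved with the day in every WT cluster was not tested.

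The other members with the highest mean difference were RPL3L, RPL31, RPL36AL and RPL23A. These, RPL14 and the members at the low end were chosen by their mean over the same 4 days. That choice favours the same direction on each day. RPL31 was at 489, 475, 340 and 361 CPM in WT and at 559, 624, 574 and 470 CPM in CF, so that every CF library exceeded the WT library of its day, by 0.75 on the log2 scale at day 7. In SOX2-low WT cells alone RPL31 was at 506, 604, 418 and 418 CPM, closer to CF but below it on each day. RPL23A was at 1248, 1264, 1007 and 1046 CPM in WT and at 1456, 1622, 1442 and 1358 CPM in CF, again above WT on each day. At the low end, RPL3 was at 2175, 1435, 1573 and 900 CPM in WT and at 1578, 1278, 1157 and 845 CPM in CF, below WT on each day with log2 differences of -0.46, -0.17, -0.44 and -0.09. SOX2-low WT cells alone had 2038, 1996, 2055 and 1283 CPM of RPL3, further above CF than all WT cells on day 5, 7 and 9. RPL10 (-0.07, -0.08, -0.52 and -0.06) and RPL8 (-0.22, -0.21, -0.44 and -0.03) were also below WT on each day, and RPS2 on day 2, 5 and 7 (-0.43, -0.15, -0.33 and 0.09).

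A small set of members ran against the rest in the last step of WT. Between day 7 and day 9, 63 of 77 members were lower in WT and 14 were higher, against 51.8% of 12535 genes that were higher by any amount; in CF 8 of 77 were higher, against 37.3% of 11741 genes. Of the 14, 9 had at least 100 CPM in each library, were higher by at least 1.1-fold and were not the paralog RPS27L: RPS21, RPS27, RPS28, RPS29, RPL35A, RPL36, RPL37, RPL37A and RPL38. They encode some of the smallest proteins of the ribosome. RPL39, which encodes another very small one, was not among them (190 and 180 CPM on day 7 and 9). Since this WT step chose the 9 genes, their values in it are a description.

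RPS29 was at 2663, 2198, 2467 and 4233 CPM in WT and at 3744, 3556, 3529 and 3293 CPM in CF. RPS28, which the annotation table lists as a long non-coding RNA although the symbol is that of a ribosomal protein, was at 2265, 1963, 1787 and 3007 CPM in WT and at 3173, 2598, 2438 and 2128 CPM in CF. RPS27, a zinc-binding small subunit protein, was at 3220, 2694, 2914 and 4265 CPM in WT and at 4425, 4038, 3803 and 3340 CPM in CF. RPL38, listed in the same way as RPS28, was at 1149, 973, 1064 and 1570 CPM in WT and at 1585, 1328, 1369 and 1149 CPM in CF. All 4 were highest at WT day 9 among the WT libraries and lowest at CF day 9 among the CF libraries.

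Of the 9 genes, 8 were higher in CF than in WT on day 2, 5 and 7 and lower in CF on day 9. RPL35A was lower in CF on day 2 only. The 9 were chosen for being higher at WT day 9 than at WT day 7, which favours this turn between day 7 and day 9. The turn is thus a description too, and the share of all genes with it was not counted. Together the 9 genes held 9.12%, 9.98%, 10.5% and 18.5% of the member UMIs in WT and 11.8%, 12.5%, 14.3% and 14.0% in CF. Without them the members took 17.9%, 13.7%, 13.0% and 9.45% of all UMIs in WT and 17.5%, 14.5%, 11.8% and 10.8% in CF. The ratio of RPL to RPS UMIs also stood apart at WT day 9, at 0.964, while the other 7 libraries had at least 1.02. The part of the 9 genes in this ratio was not measured.

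The shift at WT day 9 was seen in every cluster that could be followed. In 16 of 16 WT clusters with at least 30 cells on both days, the 9 genes took more of the member UMIs on day 9 than on day 7, with a median change of 7.00 percentage points and a range from 5.84 to 11.9. The 9 genes were chosen on this step, and the clusters are parts of the same WT libraries. The WT count is therefore a description, and its clusters are not repeats. In CF the 9 genes took less on day 9 in 12 of 12 clusters, by a median of -1.37 percentage points. Before that they had taken more on day 7 than on day 5 in 7 of 7, by a median of 2.58. The CF clusters are likewise parts of the same CF libraries and not repeats. Other genes of small proteins were picked after this had been seen, so their counts are a description. At WT day 9, 11 of 12 exceeded day 7, against 51.8% of all genes tested, with a median log2 difference of 0.41. In CF 7 of 12 did, against 37.3% of all genes, with a median of 0.04. Examples are ATP5ME (401 and 788 CPM at WT day 7 and 9), ROMO1 (330 and 574 CPM) and NDUFB1 (202 and 378 CPM). These are nuclear genes of mitochondrial proteins and are not part of the mitochondrial UMIs. With 1 library per day, a change of the cells and a property of the WT day 9 library cannot be told apart.

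**Figure D4:**
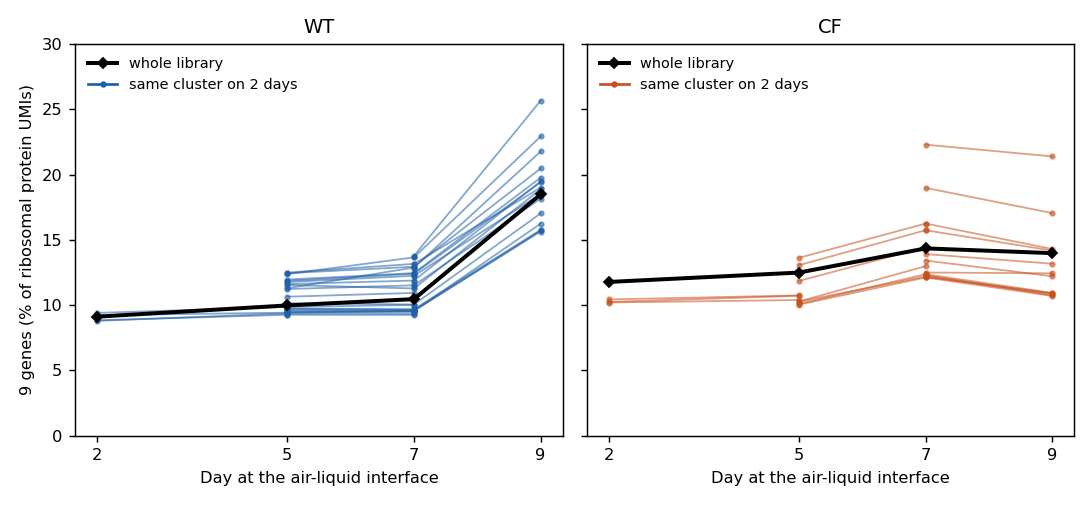
Percent of the ribosomal protein UMIs that came from the 9 genes (y axis) by day at the ALI (x axis), WT left and CF right. Thin lines join the same cluster on 2 neighbouring days (at least 30 cells on each) and the black line is the whole library. Every WT line rises from day 7 to day 9, where the library goes from 10.5% to 18.5%, and every CF line falls in that step. The 9 genes were chosen for being higher in this WT step.

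The paralogs and related members did not share 1 pattern. RPS27L (6961240 to 6965175 on its sequence), a paralog of RPS27 known to be induced by p53, was the only member higher at day 9 in both genotypes. It was at 445, 835, 777 and 1078 CPM in WT and at 483, 562, 624 and 926 CPM in CF, with ratios of day 9 to day 2 of 2.42 (2.40 to 2.45) and 1.92 (1.89 to 1.94). It was lower in CF than in all WT cells on day 5, 7 and 9, by -0.57, -0.32 and -0.22 on the log2 scale. Against cells of SOX2-low WT clusters alone (348, 387 and 522 CPM on these days) it was higher in CF. MDM2, also a known p53 target, was at 163, 486, 471 and 535 CPM in WT and at 99.6, 142, 257 and 385 CPM in CF. CDKN1A, another such target, was at 420, 819, 644 and 908 CPM in WT and at 524, 509, 628 and 842 CPM in CF. SOX2-low WT cells had 117, 104, 112 and 201 CPM of MDM2 and 539, 421, 388 and 733 CPM of CDKN1A. In these WT cells both genes were thus above CF on day 2 and below CF on day 5, 7 and 9.

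Clusters covered a wider range of RPS27L than libraries did. Over the 68 clusters of at least 50 cells it ran from 171 to 1523 CPM, and its share of the member UMIs from 0.138% to 1.47%, a coefficient of variation (CV) of 75.0% where the median of 74 members with at least 100 CPM was 15.3%. The 26 clusters in which members held 18% or more of the UMIs had 292 to 662 CPM of RPS27L, and the 17 clusters under 12% had 171 to 1523 CPM. Among these 17, the 5 with few UMIs per cell (shallow clusters, medians of 1043.5 to 4718 UMIs) had 171 to 792 CPM, and the other 12 had 826 to 1523 CPM, all above the range of the 26. Spearman's rho of RPS27L with the member share was -0.73 over 39 WT clusters and -0.44 over 29 CF clusters, and -0.79 and -0.76 over the 36 and 25 that were not shallow; both measures share the UMI total of a cluster, and clusters share libraries, so this is a description. In the WT libraries, cells of SOX2-high clusters had 446, 1247, 982 and 1322 CPM of RPS27L, and cells of SOX2-low clusters (under 10 CPM of SOX2) had 442, 348, 387 and 522 CPM. These sets were parted on SOX2 after its values had been seen and are not groups of the study. They were alike on day 2 and apart on each later day.

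**Figure D5:**
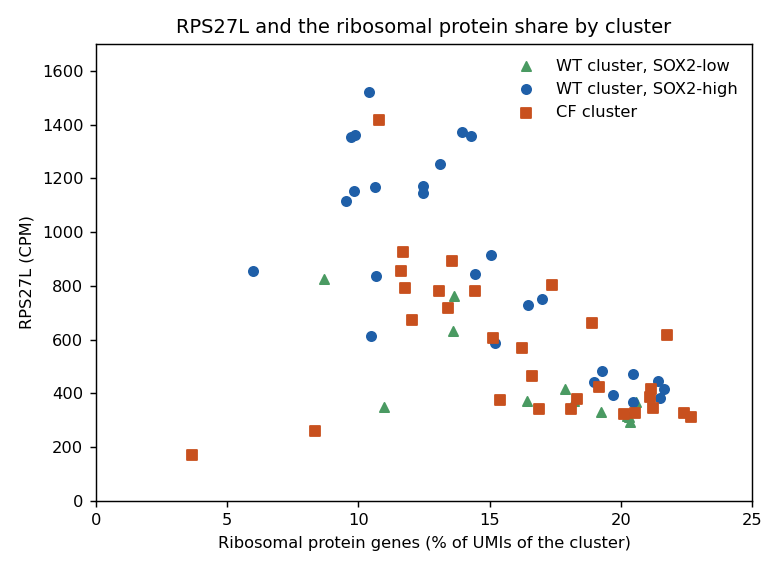
RPS27L in CPM (y axis) against the percent of UMIs on ribosomal protein genes (x axis), 1 point per cluster of at least 50 cells, WT SOX2-low triangles, WT SOX2-high circles and CF squares. The 26 clusters at 18% or more on the x axis all lie at 662 CPM or less, and of the 17 clusters under 12% the 5 shallow ones lie at 171 to 792 CPM and the other 12 at 826 to 1523 CPM.

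RPL22L1, the paralog of RPL22, went the other way. It was at 539, 389, 375 and 231 CPM in WT and at 420, 411, 388 and 316 CPM in CF, and was lowest on day 9 in both. Its log2 difference between day 2 and day 9 was -1.22 in WT and -0.41 in CF. Over clusters its rho with the member share, of which it is a part, was 0.92 in WT and 0.68 in CF. Without the shallow clusters it was 0.93 and 0.55, on the same terms as for RPS27L. RPL22 itself was at 1209, 949, 861 and 737 CPM in WT and at 1198, 1012, 852 and 787 CPM in CF.

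RPL36AL, a near copy of RPL36A, was at 234, 290, 227 and 225 CPM in WT and at 259, 359, 331 and 335 CPM in CF. It was above the WT library on each day, with day 9 at 0.37 against day 2 in CF and -0.06 in WT. In SOX2-low WT cells it was at 297, 364, 274 and 257 CPM, above CF on day 2 and 5. RPL3L, a paralog of RPL3 best known from heart and skeletal muscle, had only 104 to 314 UMIs per library. It was at 2.53, 2.32, 2.41 and 1.23 CPM in WT and at 2.93, 4.39, 4.52 and 2.6 CPM in CF, with ratios of 1.16 (0.982 to 1.37), 1.89 (1.59 to 2.25), 1.87 (1.51 to 2.32) and 2.12 (1.62 to 2.77). The day 2 interval includes 1, and the others do not. In SOX2-low WT cells it was at 3.47, 3.66, 3.04 and 2.13 CPM.

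RPL26L1, a near copy of RPL26, stayed between 5.57 and 8.15 CPM in all libraries. RPL7L1 lay between 58.2 and 72.3 CPM, and RPS19BP1 between 91.8 and 137 CPM. RPS4X, the X-linked form of RPS4, was at 3434, 2349, 2405 and 1530 CPM in WT and at 3078, 2562, 2021 and 1716 CPM in CF, like the main body of members. The counts rest on reads with 1 best gene, and how many reads of near-identical copies were set aside was not measured.

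The member share covered a wide range over the clusters. Over the 68 clusters of at least 50 cells it ran from 3.68% in CF cluster 27 to 22.7% in CF cluster 1, with a median of 15.8%. The lowest cluster that was not shallow was WT cluster 16, at 5.97%. CF cluster 27 also had 16.3% of its UMIs on mitochondrial genes and a median of 4718 UMIs per cell, and the part of either in its low share was not tested. By the deposited class, leaving out clusters led by another class's markers and shallow ones, ductal clusters had a median of 19.7% (24 clusters, 8.67% to 22.4%), centroacinar clusters 14.8% (16 clusters, 5.97% to 22.7%) and centroacinar progenitor clusters 11.9% (10 clusters, 9.52% to 15.2%). These medians pool clusters of different days, so class and day are not parted in them. In the CF clusters kept, centroacinar cells were above ductal cells on day 2 (22.3% and 21.2%) and day 5 (17.5% and 17.3%). They were below ductal cells on day 7 and 9. In WT, centroacinar cells were below ductal cells on each day. The 4 proliferating clusters lay between 17.9% and 19.7%, with 1784 to 2091 CPM of 14 S and G2/M phase genes. Spearman's rho of the member share was 0.48 with those cell cycle genes, -0.32 with the mitochondrial share and 0.20 with the median UMIs per cell over the 68 clusters. These were 0.58, -0.42 and 0.28 over the 39 WT clusters and 0.29, -0.10 and -0.01 over the 29 CF clusters. Without the shallow clusters they were 0.60, -0.38 and 0.24 over 36 WT clusters and 0.43, -0.01 and -0.40 over 25 CF clusters. Clusters share libraries and differ in their days, so these values are a description.

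Only 14 of 71 clusters had a marker of their own class among their 10 leading genes by fold, so class names are the authors'. WT and CF cells were also clustered apart, so a class is made of different clusters in the 2 genotypes. Class comparisons left out 6 clusters in which another class had more markers among these genes, and 7 shallow ones with no own marker. In the clusters kept, WT and CF ductal cells were close on day 2 (20.7% and 21.2%) and day 5 (17.5% and 17.3%), and at day 7 they were at 16.6% and 15.4%. Centroacinar cells were at 11.7% in WT (mainly WT cluster 7 and 12) and 17.5% in CF (mainly CF cluster 0, 5 and 15) on day 5, at 14.3% and 14.8% on day 7, and at 10.0% and 12.5% on day 9. Progenitors were at 15.2% and 13.4% on day 2, 10.9% and 13.7% on day 5, 11.6% and 10.9% on day 7, and 9.99% and 11.5% on day 9. The sign of the difference between CF and WT was thus not the same over classes on day 2, 5 and 7. At day 9 it was higher in CF in the 3 classes compared, of which the ductal one had only 51 CF cells (16.1% against 14.0% in WT). With all clusters, ductal cells at day 9 were at 14.4% in CF (284 cells) and 14.0% in WT. The day 7 ductal value of CF rested on 88 cells. With all clusters it was 13.9% (176 cells), against 16.5% in WT.

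In WT, cells of SOX2-low clusters had a higher share than cells of SOX2-high clusters on day 5, 7 and 9, and a lower one on day 2. The sets were made of different clusters from day to day, and the SOX2-low cells came mainly from WT cluster 19 on day 2 (556 of 892 cells), WT cluster 0 and 11 on day 5 (571 and 541 of 1801), WT cluster 0 on day 7 (524 of 1276) and WT cluster 8 on day 9 (801 of 1510). The SOX2-low cells had 19.0%, 19.6%, 17.9% and 13.9% of UMIs on members on day 2, 5, 7 and 9, and SOX2-high cells 19.8%, 11.5%, 12.8% and 10.6%. The SOX2-low cells were 14.3%, 33.8%, 27.5% and 27.9% of the WT cells. Their cell cycle genes were at 320, 637, 321 and 62.6 CPM against 571, 105, 95.9 and 86.3 CPM in SOX2-high cells, which was not tested as a part of the difference. The CF shares of day 5, 7 and 9 lay between those of the WT sets.

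Clusters with at least 30 cells on 2 neighbouring days were followed to see how the share changed within them. In WT, 4 clusters could be followed from day 2 to day 5, all of them SOX2-low and with only 187 of the 6224 day 2 cells, and their share was higher on day 5 in 4 of 4, by a median of 0.475 percentage points, while the share of the whole library was lower by 4.5 points. In CF the share was lower on day 5 in 3 of 3 such clusters, which held 553 of 4499 day 2 cells, by a median of -2.12 points, and that of the library changed by -3.3 points. Between day 5 and day 7 it was lower in 17 of 21 WT clusters and in 7 of 7 CF clusters, with medians of -0.471 and -0.883, where the libraries changed by -0.677 and -2.8 points. Between day 7 and day 9 it was lower in 11 of 16 and 9 of 12, with medians of -0.429 and -0.328, where the libraries changed by -2.96 and -1.19 points. Clusters of a genotype are parts of the same libraries and are not repeats. The split of these changes between and within clusters was not measured.

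Other genes of translation were read from fixed lists, beside which 13.1% of all genes tested were lower by 1.5-fold or more between day 2 and day 9 in WT and 8.03% in CF, and 20.8% and 19.3% were higher. RPLP0, a protein of the ribosomal stalk, was at 4267, 2824, 2845 and 1834 CPM in WT and at 3969, 2911, 2285 and 1889 CPM in CF. Of 18 translation factors and other genes with TOP tracts, 13 were lower by 1.5-fold or more in WT and 10 in CF, none higher, with medians of -0.88 and -0.69. EEF1A1, which brings tRNAs to the ribosome, was at 6164, 4467, 4669 and 3174 CPM in WT and at 5843, 4292, 4291 and 3540 CPM in CF. These medians were close to those of the members.

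Genes that build ribosomes had smaller differences over time. Of 30 ribosome biogenesis genes, 16 were lower by 1.5-fold or more between day 2 and day 9 in WT and 4 in CF, and none in WT and 1 in CF was higher, with medians of -0.62 and -0.25. FBL, the methyltransferase of the nucleolus, was at 187, 104, 97.6 and 79.8 CPM in WT and at 122, 103, 92.4 and 72.2 CPM in CF. NCL was at 480, 365, 294 and 300.0 CPM in WT and at 417, 458, 471 and 429 CPM in CF. On day 2, 5 of the 30 were lower by 1.5-fold or more in CF and none was higher (median -0.33), against 11.7% and 10.7% of all genes, and on the later days the medians lay between -0.03 and 0.04. Whether the change differed between the genotypes was not tested. Of the 76 mitochondrial ribosomal protein genes, which serve the separate ribosome of the mitochondrion, 15 in WT and 4 in CF were lower by 1.5-fold or more and 2 were higher in each, with medians of -0.35 and -0.12. The median of all genes was 0.12 and 0.16, and over all genes 13.1% and 8.03% were lower and 20.8% and 19.3% higher.

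Of 18 genes of the mTOR and MYC pathways and p53 targets, 3 were higher and 2 lower by 1.5-fold or more in WT, and 3 and 1 in CF, with medians of 0.11 and 0.08. All genes tested had 20.8% higher and 13.1% lower in WT and 19.3% and 8.03% in CF, so nothing particular to this list is read from its counts. EIF4EBP1, the translation repressor that mTOR inactivates, was lower at day 9 by log2 differences of -1.25 and -0.86. MYC was at 45.6, 24.0, 24.0 and 15.7 CPM in WT and at 20.1, 20.5, 21.6 and 24.6 CPM in CF. It was lowest at day 9 in WT and highest at day 9 in CF. The 14 cell cycle genes summed to 539, 349, 173 and 79.1 CPM in WT and to 236, 139, 82.7 and 74.4 CPM in CF, and so moved with the member share over the days; their part in it was not tested.

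Among 949 other genes with at least 100 CPM in every library, those most like the summed members over the 8 libraries were EEF1B2 (Pearson's r = 0.98 of log2 CPM), RPLP0 (0.98), LOC101674270 (0.98), LDHA (0.98) and RACK1 (0.97). LDHA, the lactate dehydrogenase of glycolysis, was at 720, 383, 400.0 and 256 CPM in WT and at 612, 448, 374 and 273 CPM in CF. Within the members, 49 of 73 had r above 0.9 with the sum and 5 had r below 0: RPS27L (-0.91), RPS29 (-0.25), RPL14 (-0.19), RPL36AL (-0.12) and RPL38 (-0.01). Since members enter the sum and all points share 8 library totals, these are descriptions.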

How the data were processed

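The authors aligned 10x Genomics reads to ferret ASM1176430v1.1 with Cell Ranger 5.0.1 and deposited whole UMI counts per gene and barcode. The deposited cell table gives cell, cluster and class names, total counts and the percent of mitochondrial UMIs, which here served only as a check. By the study's methods, cells with under 200 genes or over 20% mitochondrial reads had been dropped and doublets taken out with DoubletFinder in R 4.1.2 (no caller was rerun). The 32945 retained of 44243 barcodes were used, their UMIs summed per library, cluster and class, and divided by the total (CPM). With 1 library per group no test was run. Intervals are exact (Clopper-Pearson for shares, conditional binomial for ratios, 95%) and cover counting error only. The comparison code was tested on simulated data. Scalings came from edgeR 4.0.16 (TMM) and DESeq2 1.42.0 in R 4.3.3, and sums from Python 3.11.15.

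Members, lists and the SOX2 limit were chosen with earlier results of these data known. Named members are the 5 with most UMIs, those with symbols ending in L, L1, X, Y or BP1, the 5 highest and 5 lowest mean CF minus WT differences, the 3 largest rises and falls per genotype, and the 5 whose share of member UMIs varied most over clusters (RPS27L, RPS29, RPL14, RPS27 and RPL36AL). RPS28, RPL37, RPL22, RPL39 and the other genes of the set of 9 were named after their values were seen. Some items, and the alternative that added further ribosomal genes to the members, are not reported here. The deposited normalized values and lineage scores were not used. All 78 members matched the RefSeq annotation table, 76 of them as protein coding.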

Additional observations from a re-analysis of the deposited data

Results flagged for a closer look

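The genotypes moved in opposite directions in the results below. None of these differences was tested, since there was 1 library per genotype and day.

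Between day 2 and day 9, RPS29 was at 0.67 in WT and -0.19 in CF on the log2 scale, RPS21 at 0.13 and -0.70, and RPL14 at -0.38 and 0.66. In each, 1 genotype passed 1.5-fold and the other had the opposite sign. This depended on the scaling. With TMM and DESeq2 library sizes RPS21 was lower in both genotypes (-0.07 and -0.04 in WT, -0.97 and -0.94 in CF). RPS29 was then at 0.47 and 0.51 in WT and RPL14 at 0.39 and 0.42 in CF, all under 1.5-fold, with RPS29 at -0.45 and -0.42 in CF and RPL14 at -0.57 and -0.54 in WT. Within the member UMIs alone, RPS29 (1.44 in WT, 0.48 in CF) and RPL14 (0.39 and 1.32) were higher in both. The 9 genes that include RPS29 and RPS21 took 8.02 percentage points more of the member UMIs at day 9 than at day 7 in WT, and in CF the change was -0.363 points. The 9 were chosen for being higher in this WT step, so the sign of the WT value was set by the choice. In clusters followed from day 2 to day 5, the median change of the member share was 0.475 percentage points in WT (4 clusters) and -2.12 in CF (3 clusters). These clusters held 187 of 6224 WT and 553 of 4499 CF cells of day 2, the 4 WT ones were all SOX2-low, and the share of the whole library was lower on day 5 in both genotypes (-4.5 and -3.3 points).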

How the results depend on the processing

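The fall of the member share between day 2 and day 9 kept its direction under 12 alternatives in WT and 10 in CF, and the log2 difference between CF and WT kept its sign under 5 of 11 alternatives at day 2, 10 at day 5, 11 at day 7 and 9 at day 9. The values below are log2 ratios of CF to WT on day 2, 5, 7 and 9 and then of day 9 to day 2 in WT and CF. With edgeR TMM library sizes they were -0.048, 0.15, -0.29, -0.016, -0.96 and -0.93. With DESeq2 size factors they were -0.024, 0.18, -0.25, 0.0084, -0.93 and -0.90. Over all deposited barcodes they were 0.0044, 0.11, -0.13, 0.13, -0.82 and -0.70, and in cells of at least 3000 UMIs 0.0069, 0.12, -0.083, 0.11, -0.77 and -0.66. As the mean share of cells they were 0.016, 0.20, -0.078, 0.11, -0.83 and -0.74. With mitochondrial UMIs left out they were -0.021, 0.14, -0.14, 0.058, -0.748 and -0.67, and in the clusters kept by the marker check -0.0060, 0.052, -0.10, 0.099, -0.76 and -0.65. Without proliferating classes they were 0.0053, 0.14, -0.078, 0.11, -0.77 and -0.67, and with equal weight per class (2 or 3 classes) -0.058, 0.29, -0.083, 0.17, -0.58 and -0.56. Against SOX2-low WT cells alone they were 0.062, -0.25, -0.38 and -0.15, with -0.45 over time in WT. The cause of each turn was not tested.

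Chosen after seeing the data, the ratios without the 14 members higher at WT day 9 than day 7 were -0.042, 0.074, -0.17, 0.19, -0.96 and -0.73. In clusters with at least 30 cells on both days, weighted equally, WT day 2 to day 9 was -0.87 (1 cluster) and WT day 2 to day 5 was 0.037 (4 clusters), where the whole library had -0.37. For day 5 to 7 and day 7 to 9 it was -0.025 and -0.072 in WT (libraries -0.066 and -0.33), and for the 3 steps in CF -0.16, -0.13 and -0.048 (libraries -0.26, -0.27 and -0.13).

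TMM moved the median of all genes between day 2 and day 9 from 0.12 to -0.05 in WT and from 0.16 to -0.08 in CF, and at day 7 the CF minus WT median from 0.12 to -0.06. Members lower by 1.5-fold between day 2 and day 9 in CF were then 62 (15.3% of all genes), and 61 with DESeq2 (14.0%), in place of 40 (8.03%), and those higher were 1 in place of 2 in each genotype under both. In WT, SOX2-low cells alone gave 33 (8.56%) in place of 54, and at 2-fold 24 members were lower in WT (6.02%) and 6 in CF (3.26%). Within the member UMIs alone none was lower by 1.5-fold in either genotype (4.89% of all genes in WT and 3.04% in CF). In WT 9 were higher and in CF 5, against 68.4% and 68.6% of all genes. This scaling divides by the sum of the members, which holds their median near 0 (-0.10 in WT and 0.05 in CF). In CF against WT, TMM gave 6 and DESeq2 3 lower members at day 7 (11.4% and 10.3% of all genes), and SOX2-low WT cells gave 5, 15 and 5 at day 5, 7 and 9 (8.43%, 6.59% and 4.92%), in place of none. Of 34 named values past 1.5-fold, none of 256 alternatives had the opposite sign and 210 stayed past it; over all named values 65 of 1116 did not keep the sign. No paired analysis was possible because each group is 1 library with the same single replicate number, and the days are conditions of the design, not replicates. No library could be left out, since that leaves a group empty. RPL3L and RPL26L1 had the fewest UMIs of the counted members (1730 and 4280 in all).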
